A study of Homo sapiens with 9 samples.

Results

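ICAM1 and CD44, a ligand of leukocyte integrins and the main receptor for the matrix polysaccharide hyaluronan, were measured in HL-60 clone 15 cells that carried a construct for RhoH or for GFP. They are the 2 of 9 listed adhesion genes that had a named probe set on the array, among 14778 named genes in all. The other 7, the integrin subunit genes ITGAL, ITGAM, ITGAX, ITGB2, ITGA4, ITGB1 and ITGB7, had no named probe set and are not analysed here, so the values below describe integrin partners and not the integrins. Each of ICAM1 (probe set 16858137, annotated to NM_000201) and CD44 (probe set 16723614, NM_000610) had 1 probe set.

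HL-60 is an established human promyelocytic leukaemia cell line, and clone 15 is a derivative used as a model of eosinophil precursors. Every sample carried a lentiviral construct whose expression is switched on by 4-hydroxytamoxifen (4-OHT), the active metabolite of tamoxifen. The 9 arrays were 3 of RhoH cells without 4-OHT (uninduced RhoH), 3 of RhoH cells with 100 nM 4-OHT (induced RhoH) and 3 of GFP cells with 100 nM 4-OHT, described as biological replicates. GFP cells without 4-OHT were not among these arrays. In uninduced RhoH against GFP the drug, the expression of the construct and the transduced population therefore cannot be told apart. In induced RhoH against GFP the construct and the population cannot. Values are log2 signals after RMA, the Affymetrix background correction, quantile normalization and summary, in which low signals are compressed towards the background.

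Leukocytes adhere through integrins, dimers of an alpha and a beta subunit that sit inactive on the cell and open when signals inside it, through the small GTPase Rap1, talin and kindlin, act on their tails. ICAM1 is an immunoglobulin-like surface protein bound by the integrins with the ITGB2 subunit, and inflammatory signals through NF-kB raise its transcription in many cell types. CD44 binds hyaluronan outside the cell and the ezrin, radixin and moesin linkers to actin inside it. RhoH is a small GTP-binding protein of blood cells that lacks GTPase activity and is known from T cells to restrain adhesion by the integrin LFA-1.

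Since ICAM1 and CD44 differed together between RhoH and GFP cells, the 250 bases before each annotated transcription start are shown, taken from RefSeq promoters of GRCh38.p14, which matched both genes. They lie on the plus strand at chr19:10270870-10271119 for ICAM1 and chr11:35138921-35139170 for CD44. Capitals mark the match to the motif named after them.
ICAM1: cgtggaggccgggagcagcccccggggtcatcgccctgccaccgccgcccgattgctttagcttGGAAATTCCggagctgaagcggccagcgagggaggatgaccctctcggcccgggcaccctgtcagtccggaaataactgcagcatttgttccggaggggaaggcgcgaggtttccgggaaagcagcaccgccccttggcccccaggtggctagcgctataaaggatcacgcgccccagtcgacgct
CD44: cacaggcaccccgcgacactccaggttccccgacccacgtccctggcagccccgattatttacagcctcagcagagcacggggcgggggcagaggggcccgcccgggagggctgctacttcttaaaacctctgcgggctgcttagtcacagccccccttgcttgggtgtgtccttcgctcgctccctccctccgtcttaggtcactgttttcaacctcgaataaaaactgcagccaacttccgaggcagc

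Both strands were searched. ICAM1 held GGAAATTCC, an NF-kB variant, from position -186 to -178 counted back from the start, a motif present in 0.413% of 35116 RefSeq promoter windows of the same length. This motif was chosen after the sequence was read. Neither gene matched the AP-1 motif TGANTCA (6.57%), the PU-box GAGGAA (23.6%), the palindromic oestrogen response element (0.0399%) or the degenerate NF-kB consensus (5.21%), which can overlap the variant. CD44 had no match to any of the 5 motifs. GC content was 66.0% in the ICAM1 window and 62.4% in that of CD44.

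Some facts of the whole data set touch these values. The log2 signal of RHOH was lowest without 4-OHT (5.21 ± 0.06, SD, n = 3), 5.59 ± 0.14 on the libraries labelled RhoH with 4-OHT and highest, 5.93 ± 0.02, on those labelled GFP, against what the labels imply, so directions below follow the labels only. Its induction passed the threshold (0.38, limma adjusted p = 0.0451) but lost the call in 12 of 19 alternatives (adjusted p 0.0776 to 0.192), among them leaving out any 1 array other than induced RhoH replicate 3. Within groups, arrays correlated at a Pearson r of 0.974 to 0.996, closest among the GFP arrays (0.995 or more). Induced RhoH replicate 3 and both RhoH arrays numbered 1 had the lowest array weights, 0.267 to 0.334. Array medians were 5.43 to 5.55 and no detection call was used. Signals near these medians are therefore not shown to be above background, and folds over them are ratios of RMA signal. Such signals include RHOH, ICAM1 in both RhoH groups (up to 6.38), and RASGRP3, CEMIP2, CD48 and MMP14 in uninduced RhoH cells. Of 5 measured promyelocyte markers (MPO, PRTN3, AZU1, CTSG, MYB) all 5 were called higher in both RhoH groups than in GFP cells. Over all genes 1.74% were called higher in induced and 6.01% in uninduced RhoH against GFP. Mean log2 signal over the list was 10.52 to 10.54 on GFP, 11.65 to 11.85 on induced and 12.06 to 12.09 on uninduced RhoH arrays. With 4-OHT in RhoH cells only CTSG of the 5 was called lower (-0.83), and AZU1 was at 0.05.

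ICAM1 and CD44 were both lower in RhoH cells than in GFP cells, with and without 4-OHT in the RhoH cells. ICAM1 was 1.61-fold and CD44 1.57-fold higher in GFP than in induced RhoH cells, and 1.93-fold and 1.52-fold higher than in uninduced RhoH cells. With 4-OHT in RhoH cells neither passed the threshold, a Benjamini-Hochberg adjusted p under 0.05 in limma over the 14778 genes.

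The log2 signal of ICAM1 was 5.90, 5.98 and 5.88 on uninduced RhoH replicates 1 to 3. It was 6.14, 6.02 and 6.38 on the induced RhoH arrays and 6.81, 6.94 and 6.86 on the GFP arrays. The 3 groups did not overlap: every GFP array lay above every RhoH array, and the lowest induced array, replicate 2, lay just above the highest uninduced one. The group means were 5.92 ± 0.06, 6.18 ± 0.18 and 6.87 ± 0.06 (SD, n = 3) in that order, so the induced arrays had the widest spread.

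The log2 signal of CD44 was 6.87, 7.12 and 7.09 on uninduced RhoH replicates 1 to 3. It was 6.99, 6.97 and 6.97 on the induced RhoH arrays, which nearly coincided, and 7.56, 7.59 and 7.73 on the GFP arrays. Every GFP array lay above every RhoH array, while the induced arrays lay within the range of the uninduced ones, whose lowest value was on replicate 1. The means were 7.03 ± 0.14, 6.98 ± 0.0095 and 7.63 ± 0.09 (SD, n = 3). CD44 is made in several splice isoforms, and its 1 probe set gives a single value for them.

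**Figure D1:**
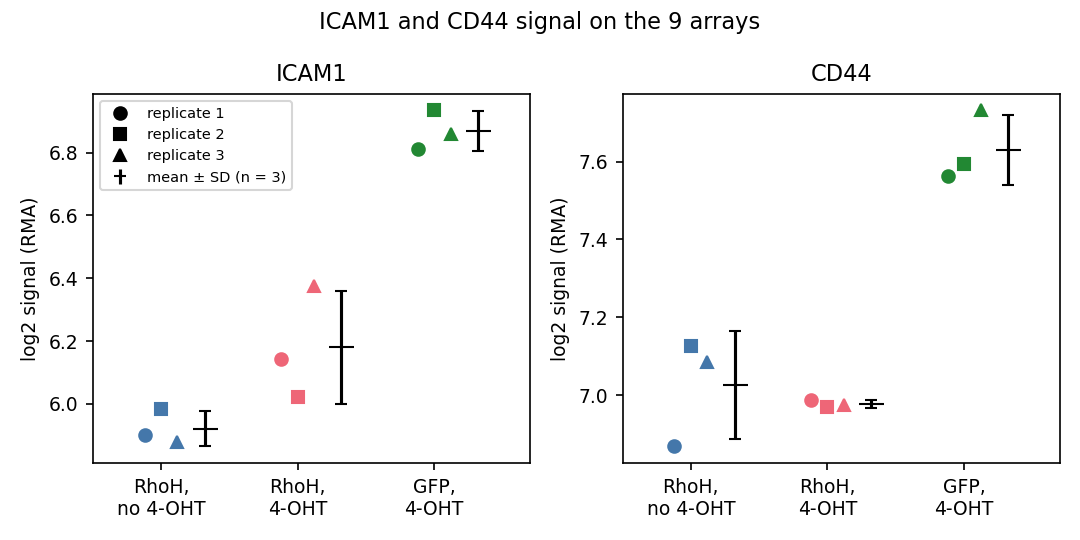
RMA log2 signal (vertical axis) of ICAM1, left, and CD44, right, on each array of the 3 groups (horizontal axis); symbols mark the replicate number and the black bar the mean ± SD of 3 arrays. For both genes the 3 GFP arrays lie above all 6 RhoH arrays, and the uninduced and induced RhoH arrays are apart for ICAM1 and overlap for CD44.

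Setting induced RhoH against GFP cells asks what differs when both received the drug. Both measured genes were called lower in RhoH cells, where 2.75% of all genes were called lower, 1.74% higher and 4.49% in either direction. Both also had no overlap of arrays, with RhoH lower, as had 11.4% of all genes (11.1% with RhoH higher, 22.5% in either direction). ICAM1 differed by a log2 fold change of -0.69 (SE 0.10, 95% interval -0.92 to -0.46, limma adjusted p = 0.00431), which ranked 249 from the lowest of the 14778 genes. CD44 differed by -0.65 (SE 0.09, interval -0.86 to -0.45, adjusted p = 0.00357) and ranked 289. An exact permutation test over arrays (two-sided) gave p = 0.1 for each, and 3 arrays against 3 cannot give less. Both calls held in all 19 alternatives, with adjusted p up to 0.0314 for ICAM1 and 0.0280 for CD44.

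Against GFP cells, uninduced RhoH cells also had both genes called lower, where 9.27% of all genes were, with 6.01% higher and 15.3% in either direction. The arrays of both did not overlap, with RhoH lower, as for 18.1% of all genes (19.2% with RhoH higher, 37.3% in either direction). ICAM1 differed by -0.95 (SE 0.10, interval -1.18 to -0.72, limma adjusted p = 0.000151) and CD44 by -0.60 (SE 0.09, interval -0.81 to -0.40, adjusted p = 0.00153). These calls held in all 19 alternatives as well, with adjusted p up to 0.00167 and 0.0114. The comparison shares its GFP arrays with the one before, so the 2 are not independent.

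RhoH cells with and without 4-OHT show what induction of the construct and the drug do together. Of the 2 measured genes 0 were called by limma and 1, ICAM1, had an unadjusted p under 0.05, where 3.78% of all genes were called, 3.02% higher and 0.751% lower, and 2139 genes had an unadjusted p under 0.05. Over all genes 447 were called higher and 111 lower, and 588 and 365 after quantile normalization again. ICAM1 was at 0.26 (SE 0.10, interval 0.03 to 0.49, adjusted p = 0.255). Its arrays did not overlap, with the induced ones higher, as for 8.90% of all genes (5.64% with the induced ones lower, 14.5% in either direction), and the value was 0.16 without induced RhoH replicate 3 and 0.34 without induced replicate 2. CD44 was at -0.05 (SE 0.09, interval -0.26 to 0.16, adjusted p = 0.906), so a rise above 0.16 or a fall beyond -0.26 lies outside its interval. Both intervals pool the spread with the GFP arrays. Over all genes these deviated less from their group mean, with an SD of 0.090 to 0.096 against 0.13 to 0.21 on RhoH arrays. CD44 moved to -0.13 without uninduced replicate 1 and to -0.0011 without uninduced replicate 2.

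The order of the levels was thus uninduced RhoH, induced RhoH and GFP for ICAM1, of which the first 2 did not differ past the threshold. For CD44 it was induced RhoH, uninduced RhoH and GFP, and again the RhoH groups did not differ past it. The change of ICAM1 exceeded that of CD44 by 0.31 on the log2 scale in the induction, by a two-sided exact permutation test of the per-array difference, added after the values were seen (p = 0.1, the smallest 3 against 3 can give), so a different response of the genes could not be shown at this number of arrays. Against GFP cells the same difference was -0.04 in induced RhoH (exact permutation p = 0.8) and -0.35 in uninduced RhoH (exact permutation p = 0.1). Over the 9 arrays the 2 genes correlated at a Pearson r of 0.896, a description that rests on the 3 groups.

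**Figure D2:**
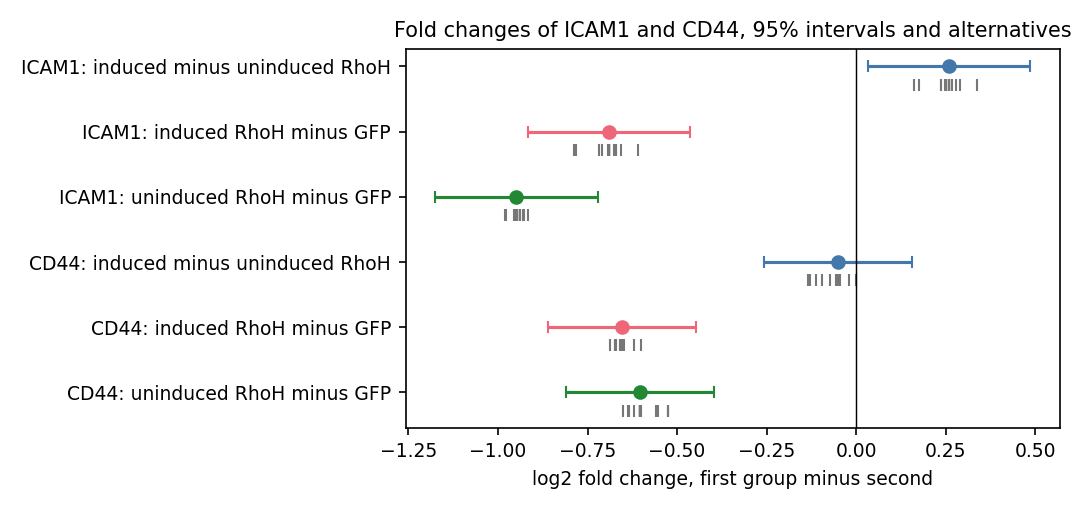
Log2 fold change (horizontal axis, first group minus second) of ICAM1 and CD44 in the 3 comparisons; dots are the limma estimates with 95% intervals and grey ticks the values under the 19 alternatives. All ticks of the GFP comparisons lie below 0, from -0.98 to -0.92 for ICAM1 in uninduced RhoH against GFP, and the interval of CD44 in the induction covers 0.

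The genes whose pattern over the 9 arrays was most like that of ICAM1, among the 7389 genes with an SD of at least the median, were ATP13A2, a lysosomal transport ATPase (Pearson r 0.989), SIAH2, a ubiquitin ligase (0.987), and MVP, the major vault protein (0.987). SIAH2 had a mean log2 signal of 9.29 in uninduced RhoH, 9.77 in induced RhoH and 11.33 in GFP cells. For CD44 they were REL, an NF-kB subunit (0.974), TP53INP1, a p53-inducible gene (0.973), and the membrane protease MMP15 (0.971). REL had a mean of 8.88 in uninduced and 8.87 in induced RhoH and of 9.59 in GFP cells, the same flat course across the RhoH groups as CD44. With 9 arrays in 3 groups such correlations are set largely by the group means.

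Of 188 other genes of adhesion in 7 lists, 123 were measured, RHOH among them. The lists were chosen with earlier results of these data known, so the shares below are a description and no test of enrichment. In the induction 21 rose and 0 fell by limma (37 and 4 with an unadjusted p below 0.05), or 17.1% called against 3.78% of all genes, and a median log2 fold change of 0.05 against -0.0043 over all genes. In induced RhoH against GFP 6 were called higher and 14 lower (16.3% against 4.49%), with a median of -0.01 against 0.03. In uninduced RhoH against GFP 8 were higher and 37 lower (36.6% against 15.3%), with a median of -0.01 against 0.05. The list of 19 other integrin subunits had 0 measured members, as for the 7 genes above.

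Of the genes that act on integrins from inside the cell 31 were measured, with a median log2 fold change of 0.19 with 4-OHT in RhoH cells. There 8 were called higher, RHOH itself among them, and 0 lower, where 3.02% of all genes were called higher and 0.751% lower. RASGRP3 and RAPGEF2, exchange factors that load Rap1 with GTP, led the 8. They also held FYB1 (0.76, limma adjusted p = 0.00617), the Rap1 effector RASSF5 and FERMT3, the kindlin of blood cells. FERMT3 was at 0.40 (limma adjusted p = 0.0338) and lost its call in several alternatives. Among these were all probe sets tested, only the 6 arrays compared and at least 1 fit with an array left out. RASGRP3 was 5.32, 5.21 and 5.90 on the uninduced, 7.09, 7.51 and 7.67 on the induced and 7.72, 7.67 and 7.66 on the GFP arrays, a rise of 3.86-fold in RMA signal with 4-OHT (adjusted p = 0.000367), over uninduced signals near the array medians. The count of 8 was 2 when only the 6 arrays compared were fitted, 4 with all probe sets tested, and 4 or 5 on leaving out 1 array, save induced RhoH replicate 1.

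Against GFP cells 1 of the 31 was higher and 4 were lower in induced RhoH cells, and 2 were higher and 14 lower in uninduced RhoH cells, with list medians of -0.15 and -0.34. Called in either direction were 4.49% of all genes in induced and 15.3% in uninduced RhoH against GFP. RAPGEF2 was lower in both (-1.41 and -2.57), as were SIPA1L1 and RAP1GAP2, which switch Rap1 off (SIPA1L1 -1.11 and -1.45, RAP1GAP2 -0.90 and -1.18), with limma adjusted p of at most 0.00145. SIPA1L1 had means of 5.55 in induced and 5.21 in uninduced RhoH cells, near the array medians and not shown to be above background. RASGRP2, the Rap1 exchange factor of platelets and neutrophils, was higher in both, at 0.79 and 0.77, and lost the first call without GFP replicate 2 or 3 (adjusted p = 0.0644 and 0.0693). The count of 5 in induced RhoH was 3 without GFP replicate 2 or 3. TLN1, which encodes talin, was not called in any of the 3 comparisons (0.08, 0.07 and -0.01).

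Of 17 kinases, adaptors and actin linkers below integrins, 3 were called higher and 0 lower with 4-OHT in RhoH cells. Against GFP cells 4 were lower in induced and 5 in uninduced RhoH cells, with 0 higher in both. The list's medians were 0.04, -0.05 and -0.01 in the 3 comparisons, against -0.0043, 0.03 and 0.05 over all genes. In the same order 3.78%, 4.49% and 15.3% of all genes were called. The Src family kinase LYN rose 2.03-fold from 8.66 ± 0.09 to 9.68 ± 0.11 (SD, n = 3, adjusted p = 0.000186), and the paxillin-like adaptor LPXN rose by 0.76 (adjusted p = 0.000430). FGR, also called higher there (0.55, limma adjusted p = 0.028), lost its call in 9 of 19 alternatives (adjusted p 0.0578 to 0.131). That count of 3 ranged from 2 to 3 over the alternatives. In uninduced RhoH against GFP cells LYN was at -1.31, FGR at -1.12, LPXN at -1.11 and VASP, which promotes actin filament growth, at -0.84, all called. The count of 4 in induced RhoH against GFP was 1 with all probe sets tested, 2 with only 6 arrays, 2 without uninduced replicate 2 or 3 or induced replicate 1, 1 without induced replicate 2 or GFP replicate 3, and 0 without GFP replicate 1 or 2.

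Of 17 other ligand genes measured, 2 were called in the induction, 1 in induced RhoH against GFP and 2 in uninduced RhoH against GFP. Over all genes 3.78%, 4.49% and 15.3% were called, so the counts against GFP lie close to the share of all genes. ICAM2 and ICAM3, relatives of ICAM1, were not called in any comparison, and against GFP cells ICAM2 was at 0.47 in induced RhoH (adjusted p = 0.157) and 0.48 in uninduced RhoH (0.0703), the opposite sign to ICAM1. The 3 ICAM2 arrays of GFP cells were 7.16, 6.98 and 6.84, below all RhoH arrays (7.21 to 7.85). GFP arrays lay below all induced RhoH arrays for 11.1% of all genes, and below all uninduced ones for 19.2%. In the induction, the complement component C3, whose fragment iC3b is bound by the ITGAM integrin, and SPP1 (osteopontin) were called higher with 4-OHT, at 0.76 and 1.04. That count of 2 fell to 0 with all probe sets tested, with only 6 arrays, and without uninduced RhoH replicate 1, 2 or 3 or GFP replicate 2 or 3, and to 1 without GFP replicate 1. C3 was lower than in GFP cells by -1.11 in induced RhoH (adjusted p = 0.00341) and by -1.86 in uninduced RhoH (adjusted p = 3.00e-05). SPP1 was called lower than in GFP cells in uninduced RhoH (-0.85, adjusted p = 0.0225), and lost the call after quantile normalization again, with all probe sets tested, and without uninduced replicate 1 or 3 or any 1 GFP array (up to 0.0924).

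Around CD44, 3 of 21 measured genes were called higher and 0 lower with 4-OHT in RhoH cells. Against GFP cells 2 were lower in induced RhoH and 6 in uninduced RhoH, with 0 higher in both. The share of all genes called was 3.78% in the induction, and 4.49% and 15.3% against GFP cells. CEMIP2, a cell surface hyaluronidase, was 5.81, 6.05 and 5.34 on the uninduced, 7.19, 7.56 and 7.48 on the induced and 10.23, 10.27 and 10.33 on the GFP arrays, with no overlap of groups. It was 7.29-fold higher in GFP than in induced RhoH cells and 23.3-fold higher than in uninduced RhoH cells in RMA signal (adjusted p = 2.58e-05 and 2.46e-07), the latter over signals near the array medians. EZR, the ezrin linker that binds the CD44 tail, was lower than in GFP cells by -0.76 and -1.15 (adjusted p = 0.00582 and 0.000116). MSN, which encodes moesin, was not called in any comparison (0.17 in uninduced RhoH against GFP, adjusted p = 0.174). With 4-OHT in RhoH cells CEMIP2 rose 3.20-fold (adjusted p = 0.000416) and MMP14, a membrane protease that cuts CD44, rose 2.33-fold (adjusted p = 0.00331). ADAM17, also called higher there (0.49, limma adjusted p = 0.0419), lost its call in 9 of 19 alternatives (adjusted p 0.0647 to 0.18). That count of 3 ranged from 2 to 4 over the alternatives. The count of 2 in induced RhoH was 4 after quantile normalization again, with array weights, with trend and robust moderation, without uninduced RhoH replicate 1 and without both RhoH arrays of that number, and the count of 6 in uninduced RhoH was 11 with array weights (5 higher, 6 lower).

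**Figure D3:**
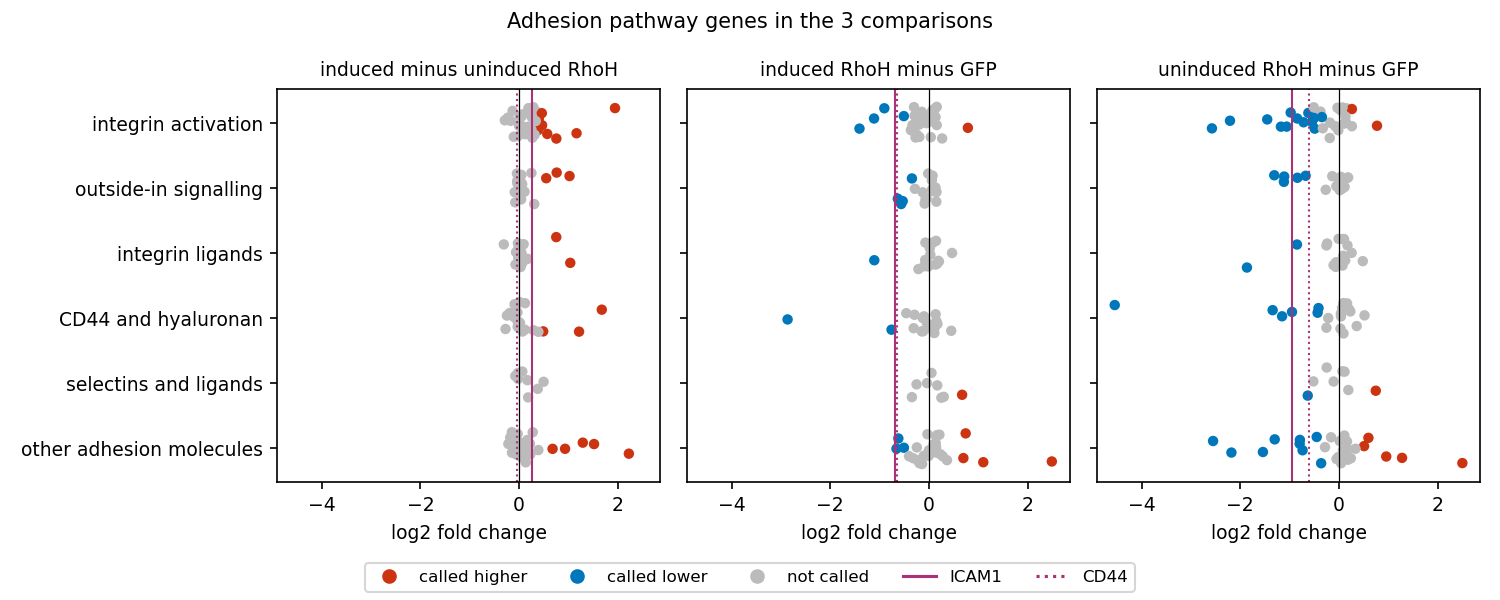
Log2 fold change (horizontal axis) of each measured gene in 6 adhesion lists (rows) in the 3 comparisons (panels); red dots were called higher, blue lower and grey not called, and purple lines mark ICAM1 (solid) and CD44 (dotted). The called genes of the induction all lie to the right of 0, and most of those in uninduced RhoH against GFP to the left.

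Among 8 selectin genes and ligands 0 were called in the induction by limma (2 rose and 0 fell with an unadjusted p below 0.05), and 1 or 2 were called in 7 of the 19 alternatives, among them leaving out uninduced or induced RhoH replicate 2. SELPLG, the main selectin ligand of leukocytes, was lower in uninduced RhoH than in GFP cells (-0.63, adjusted p = 0.00142), while CD24, a small glycoprotein bound by P-selectin, was higher in induced and uninduced RhoH (0.67 and 0.75). Of 29 other adhesion molecules 5 rose with 4-OHT and 0 fell, led by CD48, a ligand of SLAM family receptors, at 4.69-fold, and the tetraspanins CD63 (2.87-fold), CD53 (2.45-fold) and CD82 (1.91-fold). Against GFP cells 4 were higher and 3 lower in induced RhoH, and 5 higher and 9 lower in uninduced RhoH. Among all genes 3.78% were called in the induction, 4.49% in induced and 15.3% in uninduced RhoH against GFP. The granulocyte adhesion molecule CEACAM8 was 5.63-fold and CEACAM6 2.15-fold higher in induced RhoH than in GFP cells, opposite in direction to ICAM1 and CD44. The count of 7 was 3 without GFP replicate 1 and 4 without GFP replicate 2 or 3.

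**Figure D4:**
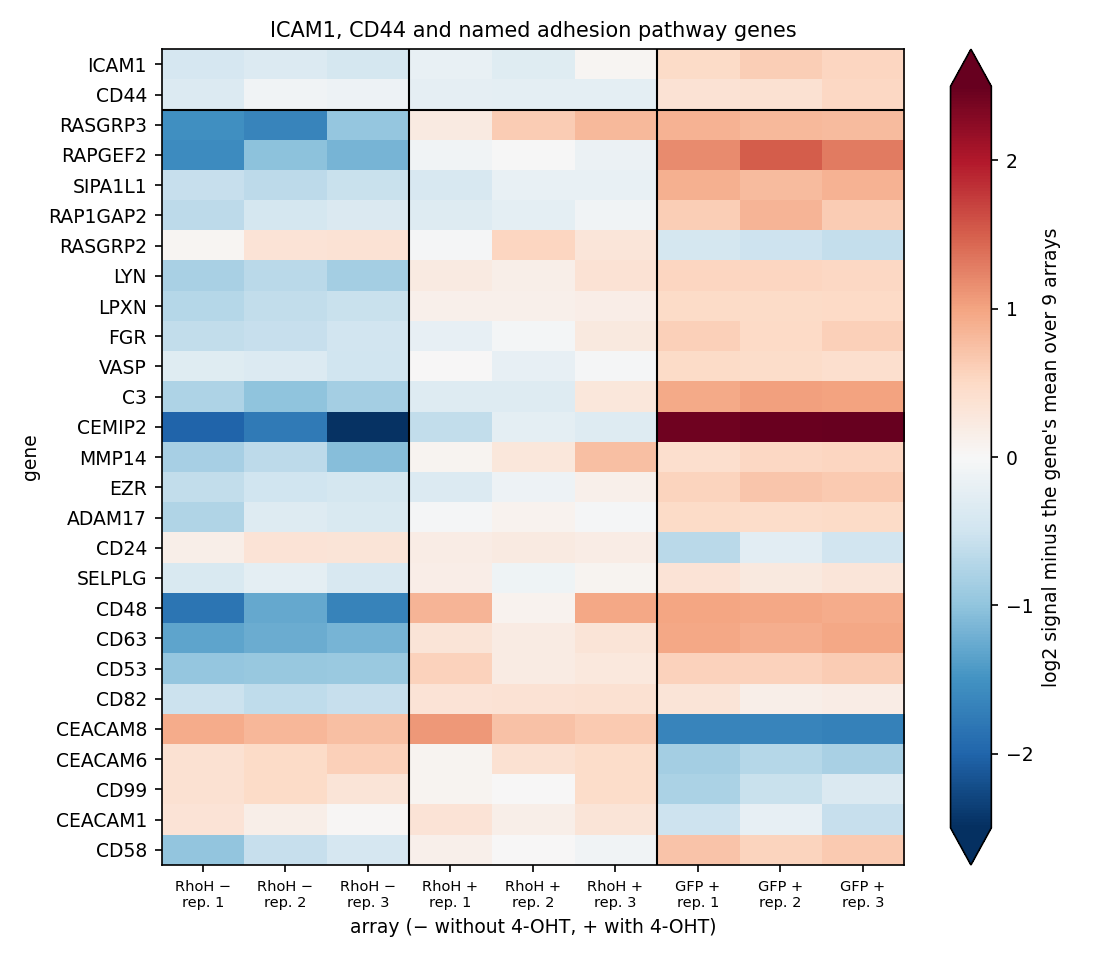
Log2 signal minus the gene's mean over the 9 arrays (colour, limited at 2.5 in each direction) of ICAM1, CD44 and 25 adhesion genes whose call held under every alternative in at least 1 comparison (rows), on the 9 arrays (columns); CEMIP2 passes the upper limit on GFP replicate 3. ICAM1 and CD44 lie above their mean on the 3 GFP arrays and below or near it on the RhoH arrays, and RASGRP2, CD24, CEACAM8, CEACAM6, CD99 and CEACAM1 run the other way.

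Markers of other cell types were read beside these values. The mean log2 signal of 6 monocyte markers was 6.66 to 6.84 on the GFP arrays, 6.26 to 6.54 on induced RhoH and 6.12 to 6.26 on uninduced RhoH arrays, the same order as ICAM1. Against GFP cells CD14 was called lower in both RhoH groups, CD68 and FCN1 were called lower in uninduced RhoH, and CD68 was called higher with 4-OHT. CSF1R, also on that list, was not called in any comparison. It was level at 6.90 to 7.09 on induced RhoH and 6.90 to 7.04 on GFP arrays. CD163 and VCAN lay between 3.89 and 4.66 on all arrays, and CD163 had its highest value on an uninduced array. On the RhoH arrays CD14 was near the array medians, at 5.05 to 5.77. Of 3 measured eosinophil genes, EPX and CLC were higher in both RhoH groups and PRG3 in uninduced RhoH than in GFP cells. Of the 4 measured T-cell genes none was called by limma in any comparison (at an unadjusted p under 0.05, 1 in the induction, 0 and 1 against GFP), and their mean was 4.97 to 5.22. Of 2 B-cell and 3 epithelial or fibroblast genes none was called by limma in any comparison (at an unadjusted p under 0.05, 1 B-cell gene in uninduced RhoH against GFP), and of 2 erythroid genes KLF1 was called higher in uninduced RhoH than in GFP cells. In such bulk samples fewer cells of a type and less RNA per cell cannot be told apart. The part of these markers in the ICAM1 and CD44 differences was not tested.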

How the data were processed

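Total RNA of 9 cultures was profiled on Affymetrix whole-transcript arrays. The authors deposited log2 values for 43550 probe sets, and per the submitters' processing notes used Affymetrix Power Tools, RMA and limma, with versions and genome build not given in the sources used here. Per the platform annotation, 15659 probe sets had 1 symbol, 27891 had none and 0 had several. Symbols were updated through a RefSeq table of GRCh38.p14, where all 15659 Entrez identifiers matched. For 521 genes with over 1 probe set the one with the highest mean was used. No 2 arrays were identical, and array medians were 5.43 to 5.55. Precision is limited by how many arrays there are.

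Differences were fitted with limma 3.58.1 in R 4.3.3 on all 9 arrays (3 group means, 6 residual and 3.86 prior degrees of freedom). The fitting procedure was tested on simulated data with independent noise and 1 spread per gene on all arrays. That setting leaves out the unequal array weights seen here, so it does not bear on single calls. A call is a Benjamini-Hochberg adjusted p under 0.05. Named genes are both members, RHOH, at most 4 called genes per list, direction and comparison, and the 3 genes most correlated with each member. FERMT3, TLN1, MSN, ICAM2, ICAM3 and the marker genes were named after their values were seen. The members and lists were chosen with earlier results of these data known. Set tests were not run. The replicate numbers did not pair the arrays by the rule used (correlations of deviations from -0.03 to 0.54).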

Additional observations from a re-analysis of the deposited data

How the results depend on the processing

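ICAM1 and CD44 kept their direction and their side of the threshold in each of the 3 comparisons under all 19 alternatives, among them the fit with the replicate number as a block (adjusted p = 0.253 and 0.868 in the induction, 0.00824 and 0.00516 against GFP for induced RhoH). Some alternatives could not change the fold changes of these genes, only their adjusted p. Among them were the mean of a gene's probe sets, since each had 1, and leaving out an array of the group not compared. Leaving out each array gave 0.161 to 0.338 for ICAM1 and -0.13 to -0.00107 for CD44 in the induction. The number of all genes called moved more. In the induction it was 558, and 953 (588 higher, 61.7% instead of 80.1%) after quantile normalization again, 314 with all probe sets tested, 950 with array weights, 190 with only 6 arrays, and 304 to 666 with an array left out (304 without uninduced RhoH replicate 3, 371, 368 and 355 without GFP replicate 1, 2 or 3). In induced RhoH against GFP it was 664, and 403 with all probe sets, 1176 with array weights, and 279 to 861 with an array left out (302, 279 and 285 without GFP replicate 1, 2 or 3). In uninduced RhoH against GFP it was 2258, 4326 with array weights, and 1450 to 2670 with an array left out (1450 and 1484 without GFP replicate 2 or 3). The share of higher calls moved too. In the induction it was 80.1%, and 59.2% with array weights, 95.8% with only 6 arrays, 58.0% without induced RhoH replicate 3, and 92.8% and 94.4% without uninduced RhoH replicate 2 or 3. In induced RhoH against GFP it was 38.7%, but 51.9% without induced RhoH replicate 1 and 51.7% without both RhoH arrays numbered 1. In uninduced RhoH against GFP it was 39.3%, but 54.5% with array weights and 50.1% without both RhoH arrays numbered 1. Why these counts and shares moved was not tested.

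The replicate block raised these counts from 558 to 684, 664 to 820 and 2258 to 2558. By the rule used the numbers were not taken as pairs, since the correlation of deviations exceeded 0.1 for replicates 1 and 2 of each pair of groups (0.543 and 0.369 between the RhoH groups) but not for replicate 3, and not every array correlated best with its own number. Of the named list genes, 10 of 16 calls in the induction, 10 of 20 in induced RhoH against GFP and 24 of 26 in uninduced RhoH against GFP held under every alternative.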

Other observations

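With the ITGB2 integrin gene unnamed on these arrays, the antisense transcript ITGB2-AS1 (NR_038311) was measured at the same locus, an observation chosen after its values were seen. Its log2 signal was 6.002, 5.90 and 5.73 on the uninduced RhoH arrays, 5.86, 5.66 and 5.94 on the induced RhoH arrays and 5.81, 5.70 and 5.88 on the GFP arrays. The 3 groups overlapped, and limma gave adjusted p-values of 0.911, 0.938 and 0.688 in the induction, in induced RhoH against GFP and in uninduced RhoH against GFP. Its signals were near the array medians (5.43 to 5.55) and are not shown to be above background. ITGB2-AS1 gives no value for ITGB2 itself.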
